A study of Gallus gallus with 58 samples.

Results

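The genes described here encode the proteins of the cytosolic ribosome, followed in the blood of chicks (Gallus gallus) over the first days after hatching. They were taken as every probe set whose only gene symbol on the platform begins with RPL or RPS (RPLP included) and a number. Symbols of the S6 kinases (RPS6K) and of paralogs written with L and a digit at the end were left out, and each gene was represented by its probe set with the highest mean. This gave 51 genes of the 11528 with a probe set of 1 symbol: 31 genes of the large subunit, 18 of the small subunit, and 2 that fit the naming rule without being core ribosomal proteins. Of these last, RPL3L is a paralog of RPL3 known from muscle in mammals, and RPS19BP1 encodes a protein that binds RPS19 and is not a subunit. RPL39L, whose symbol also ends in L as that of a paralog does, was counted among the 31. RPLP0, RPLP2, RPS19, RPS4X, RPL5, RPL11 and RPL10 had no probe set with a single symbol of that name and were not analysed here.

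A cytosolic ribosome joins a small subunit, which reads the messenger RNA, to a large subunit, which forms the peptide bonds, and each subunit is built from its own set of proteins on a scaffold of ribosomal RNA. Messages for these proteins carry a terminal oligopyrimidine (TOP) tract at their start, through which the mTOR pathway sets their translation, and cells that make blood hold them in large amounts. Bird blood differs from mammalian blood in that circulating red cells and thrombocytes keep their nuclei. In young red cells ribosomes are still abundant, and they are lost as the cells mature.

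The chicks were given CpG-ODN 2007, a short DNA with CpG motifs which the study describes as acting on TLR21, a DNA-sensing receptor of birds, or served as controls (CTL). They were injected when they hatched and bled 3 h later (10 CpG and 10 control chicks), on day 3 (D3, 8 and 8) or on day 6 (D6, 10 and 12), with 1 array per chick and 58 chicks in all. Every chick was sampled once, so ages are compared between different birds, and age, day of sampling and time since injection cannot be told apart. The labels give neither the strain, nor the sex, nor what the controls received, and nothing in them marks batches.

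Values are deposited log2 expression values, and a difference of 1 is a 2-fold difference. Over all 58 arrays the array medians lay between 6.64 and 6.78. Red cell markers were high in every group: HBAD, an alpha-type globin, had group means from 14.19 to 14.39 and SLC4A1, the anion exchanger of the red cell membrane, from 12.78 to 13.34. CD3E, a subunit of the T cell receptor complex, lay between 6.68 and 7.71. Of the arrays 4 stood apart, with a median correlation under 0.96 with the others of their group: CpG chick 31 at D6, control chick 74 at 3 h, control chick 86 at D3 and CpG chick 20 at D3. What changed when all 4 were left out is given with the results. In bulk blood, fewer cells of a type and less RNA per cell cannot be told apart, and this holds for every result below.

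Most probe sets taken for these genes were bright, which the rule favours, since it takes the highest mean of each gene. Where a gene had a second probe set it was dimmer by that rule, with means from 3.02 for RPL37 to 9.961 for RPL9. RPL32 of the large subunit had the highest mean over all arrays, at 12.65, followed by RPL4 at 12.2 and the stalk protein gene RPLP1 at 12.16. The highest small-subunit gene was RPS4Y1 at 12.04, which bears the symbol of a human Y-linked gene but is placed on chicken chromosome 4 by the GRCg7b gene table. At the low end RPL35A had a mean of 7.99 and RPS28 of 8.14. RPL3L, at 5.72, was the 1 gene of the 51 below 6.26, the level under which 40% of all probe set means fall, and whether it was detected is not known. A probe set's brightness depends on its probes, so these means order the probe sets and not the amounts of the messages.

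Few ribosomal protein genes differed between CpG and control chicks of the same age. At 3 h, limma called 0 of the 51 genes, against 0% of all 20804 probe sets, and 5 genes had an unadjusted p under 0.05. The median difference of CpG from control was 0.07, against -0.01 over all probe sets. Above 0 were 39 of the 51 values and 9732 of the 20804 probe sets. At D3 0 genes were called (0.312% of all probe sets, 0.240% higher and 0.0721% lower), again with 5 at an unadjusted p under 0.05, and the median was -0.04. At D6 1 gene was called (2.11% of all probe sets in either direction, 1.52% higher and 0.591% lower), with a median of 0.01, and 5 had an unadjusted p under 0.05.

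Among the 95% intervals of the 51 genes, the lowest lower limit and the highest upper limit were taken at each time. They were -0.42 and 0.66 at 3 h, -0.60 and 0.47 at D3 and -0.58 and 0.48 at D6. The lower and the upper limit need not come from the same gene. Each interval was made for a single gene and not for the 51 together. Of the small-subunit genes, RPS3, which lines the entry of the messenger channel, differed by 0.11 ± 0.07 (SE), 0.08 ± 0.08 and 0.08 ± 0.07 at the 3 times. RPS6, the small-subunit protein phosphorylated by the S6 kinases, differed by 0.07 ± 0.17, -0.21 ± 0.19 and -0.07 ± 0.17. RPS14, on the platform of the small subunit, differed by -0.05 ± 0.08, -0.04 ± 0.09 and -0.02 ± 0.08. The stalk gene RPLP1, whose protein recruits elongation factors, differed by 0.10 ± 0.08, 0.02 ± 0.09 and 0.09 ± 0.08. In the large subunit RPL8 differed by 0.07 ± 0.07, 0.00 ± 0.08 and 0.03 ± 0.07. None of these 5 genes passed the test at any of the 3 times.

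The gene with the smallest p at 3 h was RPL21, of the large subunit. It had a mean of 10.72 ± 0.17 (SD, n = 10; lowest 10.36, median 10.73, highest 10.92) in controls and 11.0 ± 0.20 (n = 10; lowest 10.63, median 11.11, highest 11.21) in CpG chicks. Of the 10 CpG chicks 6 lay above every control, and the groups overlapped. The difference was 0.29 ± 0.08 with a limma adjusted p of 0.441. RPL21 differed by 0.05 at D3 and by -0.07 at D6, and the change of its CpG effect from 3 h to D6 was -0.36 ± 0.11 (adjusted p = 0.124).

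RPL3L was the gene called at D6. Its probe set had a mean of 6.05 ± 0.17 (SD, n = 12; lowest 5.78, median 6.03, highest 6.45) in D6 controls and 5.67 ± 0.23 (n = 10; lowest 5.36, median 5.61, highest 6.06) in CpG chicks. Among the CpG chicks 6 of 10 lay below every control. The difference was -0.37 ± 0.10 (limma adjusted p = 0.0335), at a level where detection is not known. The call ended when any of 8 of the 22 arrays at D6 was left out, with differences between -0.42 and -0.34, and with 6 cell type scores as covariates (-0.35, adjusted p = 0.239). At D3 RPL3L differed by -0.35 ± 0.12 (adjusted p = 0.153).

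RPS19BP1 and RPL32 came next at D6, at 0.24 ± 0.08 (adjusted p = 0.104) and 0.23 ± 0.08 (adjusted p = 0.126). For RPS19BP1 6 of 10 CpG chicks were above all 12 controls, and CpG chick 31, at 7.98, was below them all. With array weights both passed, RPS19BP1 at 0.29 (adjusted p = 0.00857) and RPL32 at 0.27 (adjusted p = 0.0193). Without the 4 arrays that stood apart both passed as well, RPS19BP1 at 0.32 (adjusted p = 0.00644) and RPL32 at 0.27 (adjusted p = 0.0253), which made 3 called genes with RPL3L. No gene of the 51 passed the test of a change in the CpG effect: 3 h to D3 (0.00961% of all probe sets, 3 genes at an unadjusted p under 0.05), D3 to D6 (0%, 1 gene) and 3 h to D6 (0.596%, of which 0.553% higher and 0.0433% lower, 3 genes), by limma.

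**Figure D1:**
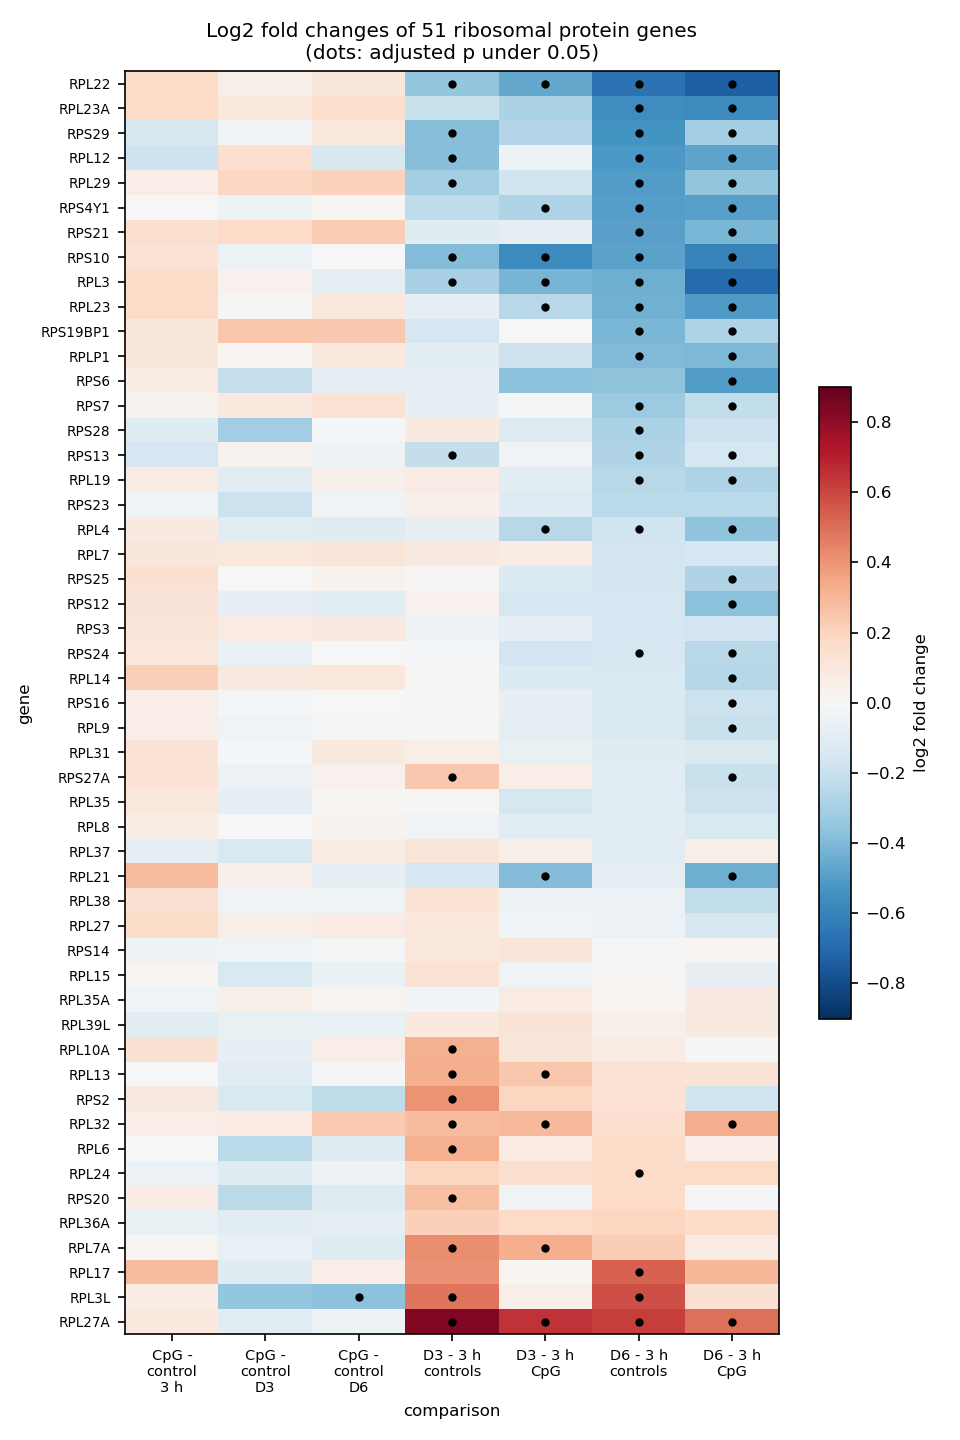
Log2 fold changes of the 51 genes (rows, ordered by their change in control chicks from 3 h to D6) in 7 comparisons (columns), with a dot where limma's adjusted p is under 0.05. The 3 CpG columns hold 1 dot, at RPL3L. In the age columns the dots lie mostly on blue (lower) cells toward the top and on red (higher) cells toward the bottom.

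Most calls lay between ages. In control chicks 18 of the 51 were lower at D6 than at 3 h (21.7% of all probe sets were lower) and 4 were higher (26.2%). In CpG chicks 25 were lower (20.5%) and 2 higher (24.1%). In either direction these are 22 genes in controls (48.0% of all probe sets) and 27 in CpG chicks (44.6%). The lower share of the 51 genes was thus 35.3% in controls and 49% in CpG chicks. The median change was -0.13 in controls and -0.19 in CpG chicks, whereas the median of all probe sets was 0.06 in both. When the arrays were quantile normalized once more, the split was 15 lower and 9 higher in controls and 17 lower and 6 higher in CpG chicks.

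The subunits were counted apart. Of the 18 small-subunit genes 8 fell from 3 h to D6 in controls and 12 in CpG chicks, and 0 rose in either. Among the 31 large-subunit genes 9 fell and 3 rose in controls, and 12 fell and 2 rose in CpG chicks. Of all probe sets 21.7% fell and 26.2% rose in controls, and 20.5% fell and 24.1% rose in CpG chicks. The small-subunit median was -0.20 in controls and -0.23 in CpG chicks, and the large-subunit median -0.09 and -0.14. Whether the subunits differ was not tested.

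RPS10 (probe set 15479015, chromosome 26) had the smallest p among the small-subunit genes in both arms. Its protein sits on the head of the small subunit and in mammals is a target of ZNF598, the ubiquitin ligase of stalled ribosomes. Controls had a mean of 11.1 ± 0.16 (SD, n = 10; lowest 10.91, median 11.11, highest 11.36) at 3 h, 10.71 ± 0.22 (n = 8; lowest 10.53, median 10.63, highest 11.18) at D3 and 10.63 ± 0.16 (n = 12; lowest 10.35, median 10.67, highest 10.78) at D6. All 12 controls at D6 lay below all 10 at 3 h. RPS10 fell by 0.48 ± 0.08 (SE, limma adjusted p = 1.03e-06) in controls from 3 h to D6.

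In CpG chicks RPS10 went from 11.23 ± 0.09 (SD, n = 10; lowest 11.09, median 11.25, highest 11.35) at 3 h to 10.66 ± 0.24 (n = 8; lowest 10.23, median 10.66, highest 11.07) at D3. At D6 it was 10.63 ± 0.19 (n = 10; lowest 10.37, median 10.66, highest 10.97). Every CpG chick at D3 and at D6 was below every CpG chick at 3 h. The fall from 3 h was 0.57 ± 0.09 (SE, adjusted p = 1.51e-06) to D3 and 0.60 ± 0.08 (adjusted p = 3.72e-08) to D6, so the level at D6 was near that at D3.

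RPS4Y1 fell by 0.50 ± 0.08 in controls (adjusted p = 2.24e-06) and by 0.49 ± 0.09 in CpG chicks (adjusted p = 1.02e-05) from 3 h to D6. Its control values were 12.09 to 12.52 (median 12.32, n = 10) at 3 h and 11.6 to 12.01 (median 11.81, n = 12) at D6, without overlap. RPS29 went from 11.29 ± 0.21 (n = 10) to 10.74 ± 0.21 (n = 12) in controls, also without overlap, and fell by 0.54 ± 0.10 (adjusted p = 1.44e-05). In CpG chicks it fell by 0.30 ± 0.11 (adjusted p = 0.0171), and CpG chick 31 at D6, at 11.5, lay above all CpG chicks at 3 h. In humans RPS10, RPS24, RPS29 and RPS7 are among the genes of Diamond-Blackfan anaemia, in which red cell formation fails. RPL35A, RPL15 and RPL27 are too, and were not called lower in controls from 3 h to D6. Control means at 3 h and D6 were 7.982 and 7.998 for RPL35A and 9.967 and 9.98 for RPL15. For RPL27 they were 10.04 and 9.994. A link of the falls to this disease was not tested.

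RPS7 and RPS24 are needed in human cells to process the RNA of the small subunit. RPS7 fell by 0.33 ± 0.07 (adjusted p = 8.62e-05) in controls and by 0.22 ± 0.07 (adjusted p = 0.00964) in CpG chicks from 3 h to D6. RPS21 fell by 0.49 ± 0.13 and 0.41 ± 0.13, and RPS13 by 0.27 ± 0.06 and 0.16 ± 0.07. RPS24 was close to the threshold in controls, at -0.15 ± 0.06 (adjusted p = 0.0499), and fell by 0.25 ± 0.07 in CpG chicks (adjusted p = 0.00237). RPS3 (-0.15 ± 0.07 and -0.17 ± 0.07) and RPS14 (-0.02 ± 0.08 and 0.02 ± 0.08) did not pass in either arm. Without the 4 arrays that stood apart RPS3 passed in both (adjusted p = 0.024 and 0.0328), and RPS24 no longer did in controls (adjusted p = 0.07).

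RPL22 (probe set 15468221, chromosome 21) changed the most among the genes that fell. RPL22 is a large-subunit protein that mice can lose without dying but need for the growth of T cells. Controls had a mean of 10.51 ± 0.16 (SD, n = 10; lowest 10.22, median 10.55, highest 10.75) at 3 h, 10.16 ± 0.27 (n = 8; lowest 9.87, median 10.1, highest 10.73) at D3 and 9.85 ± 0.21 (n = 12; lowest 9.46, median 9.89, highest 10.15) at D6. All 12 controls at D6 lay below all 10 at 3 h. The fall from 3 h to D6 was 0.66 ± 0.10 (SE, adjusted p = 3.81e-07).

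In CpG chicks RPL22 had means of 10.68 ± 0.25 (SD, n = 10; lowest 10.16, median 10.75, highest 11.0), 10.22 ± 0.38 (n = 8; lowest 9.80, median 10.12, highest 11.01) and 9.95 ± 0.16 (n = 10; lowest 9.76, median 9.97, highest 10.22) at the 3 times. At D6 9 of 10 lay below all CpG chicks at 3 h, and RPL22 had fallen by 0.73 ± 0.11 (adjusted p = 2.19e-07). Its paralog RPL22L1, which the naming rule leaves out, had control means of 10.6, 10.55 and 10.0. RPL22L1 fell by 0.54 ± 0.13 from D3 to D6 in controls (adjusted p = 0.00408) and by 0.63 ± 0.13 from 3 h to D6 in CpG chicks. In mice RPL22 represses the paralog's message, which was not tested here. In these chicks both levels were lowest at D6.

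RPL3 helps to shape the peptidyl transferase centre. It had control means of 11.06 ± 0.24 (SD, n = 10; lowest 10.63, median 11.1, highest 11.52) at 3 h, 10.77 ± 0.28 (n = 8; lowest 10.25, median 10.79, highest 11.13) at D3 and 10.63 ± 0.19 (n = 12; lowest 10.33, median 10.6, highest 11.05) at D6, and the groups overlapped. In CpG chicks all 10 values at D6 (10.21 to 10.81, median 10.52) lay below all 10 at 3 h (11.04 to 11.46, median 11.23). RPL3 fell by 0.44 ± 0.10 in controls (adjusted p = 0.000165) and by 0.69 ± 0.10 in CpG chicks (adjusted p = 1.91e-07) from 3 h to D6. A second RPL3 probe set, with a mean of 9.83, fell by 0.42 ± 0.09 and 0.68 ± 0.10.

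At the exit of the nascent chain, RPL23A fell by 0.56 ± 0.12 in controls (adjusted p = 7.8e-05), where all 12 values at D6 lay below all 10 at 3 h, and by 0.57 ± 0.12 in CpG chicks (adjusted p = 0.000137). RPL23, which takes part in the joining of the subunits, fell by 0.44 ± 0.08 (adjusted p = 1.23e-05) and 0.51 ± 0.08 (adjusted p = 2.65e-06). The second RPL23 probe set, with a mean of 8.93, changed by -0.14 ± 0.09 and -0.13 ± 0.09 and did not pass in either arm. RPL12, at the base of the stalk, fell by 0.52 ± 0.11 and 0.48 ± 0.12, and its dimmer second probe set, with a mean of 6.602, changed by -0.10 ± 0.11 and -0.24 ± 0.11 and did not pass. The stalk gene RPLP1 fell by 0.39 ± 0.08 (adjusted p = 5.93e-05) and 0.40 ± 0.08 (adjusted p = 0.000112). RPL29 fell by 0.50 ± 0.09 and 0.36 ± 0.10, RPL19 by 0.25 ± 0.07 and 0.27 ± 0.07, and RPL4 by 0.18 ± 0.07 and 0.37 ± 0.07.

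RPL27A (probe set 15514442, chromosome 5) went the other way. Controls had a mean of 9.85 ± 0.14 (SD, n = 10; lowest 9.52, median 9.83, highest 10.02) at 3 h, 10.68 ± 0.28 (n = 8; lowest 10.3, median 10.62, highest 11.1) at D3 and 10.47 ± 0.21 (n = 12; lowest 10.15, median 10.51, highest 10.73) at D6. All controls at D3 and at D6 lay above all controls at 3 h. RPL27A rose by 0.83 ± 0.13 (SE, adjusted p = 1.11e-06) from 3 h to D3, and was 0.62 ± 0.11 higher at D6 than at 3 h (adjusted p = 1.1e-05).

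CpG chicks had RPL27A means of 9.93 ± 0.21 (SD, n = 10; lowest 9.47, median 9.91, highest 10.22), 10.58 ± 0.33 (n = 8; lowest 10.1, median 10.69, highest 11.09) and 10.43 ± 0.41 (n = 10; lowest 9.33, median 10.53, highest 10.69). The lowest value at D6, 9.33, came from CpG chick 31 and lay below all CpG chicks at 3 h. RPL27A rose by 0.65 ± 0.13 to D3 (adjusted p = 0.000109) and was 0.50 ± 0.12 higher at D6 (adjusted p = 0.000754). A second probe set, with a mean of 7.59, rose by 0.86 ± 0.12 in controls and 0.70 ± 0.12 in CpG chicks from 3 h to D3.

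Other genes were higher after 3 h in 1 arm or at 1 age. From 3 h to D3 RPL13, RPL32 and RPL7A rose in both arms: RPL13 by 0.33 ± 0.09 and 0.24 ± 0.09, RPL32 by 0.28 ± 0.09 and 0.29 ± 0.09, and RPL7A by 0.42 ± 0.12 and 0.32 ± 0.12. In CpG chicks the call of RPL13 ended with any of 11 of the 18 arrays left out and with array weights, that of RPL7A with any of 9, and both with median centring (adjusted p = 0.0836 and 0.0629) and with the W-linked mean, explained below, as a covariate (0.0876 and 0.0655). In controls the call of RPL32 ended without control chick 86 and with repeated quantile normalization (0.17, adjusted p = 0.202). RPS2, a small-subunit protein at the messenger entry, rose by 0.40 ± 0.11 in controls (adjusted p = 0.00354), and in CpG chicks it fell by 0.37 ± 0.11 from D3 to D6 (adjusted p = 0.00957). RPL32 was 0.32 ± 0.08 higher at D6 than at 3 h in CpG chicks (adjusted p = 0.00163) and 0.15 higher in controls, which did not pass with all arrays and did without the 4 (0.20, adjusted p = 0.0172). RPL24 was 0.17 ± 0.07 higher in controls at D6 (adjusted p = 0.0459), a call that ended with any of 13 of the 22 arrays left out and with median centring (adjusted p = 0.108). With the erythroid score, explained below, as a covariate RPL24 was at 0.03 (adjusted p = 0.802), and with 6 cell type scores at -0.07 (adjusted p = 0.768). RPL17 was 0.53 ± 0.18 higher in controls at D6 (adjusted p = 0.0117) and 0.30 ± 0.19 in CpG chicks (adjusted p = 0.183). In controls RPL17 was at 0.26 (adjusted p = 0.385) with the erythroid score and at 0.40 (adjusted p = 0.415) with the 6 scores, and was called with neither. RPL17 (0.44, adjusted p = 0.0361) and RPL24 (0.23, adjusted p = 0.00474) were higher at D6 in CpG chicks too when the 4 arrays were left out. RPL3L rose by 0.58 ± 0.10 in controls from 3 h to D6 (adjusted p = 4.24e-06) and was at 0.14 ± 0.11 in CpG chicks, all at low levels.

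**Figure D2:**
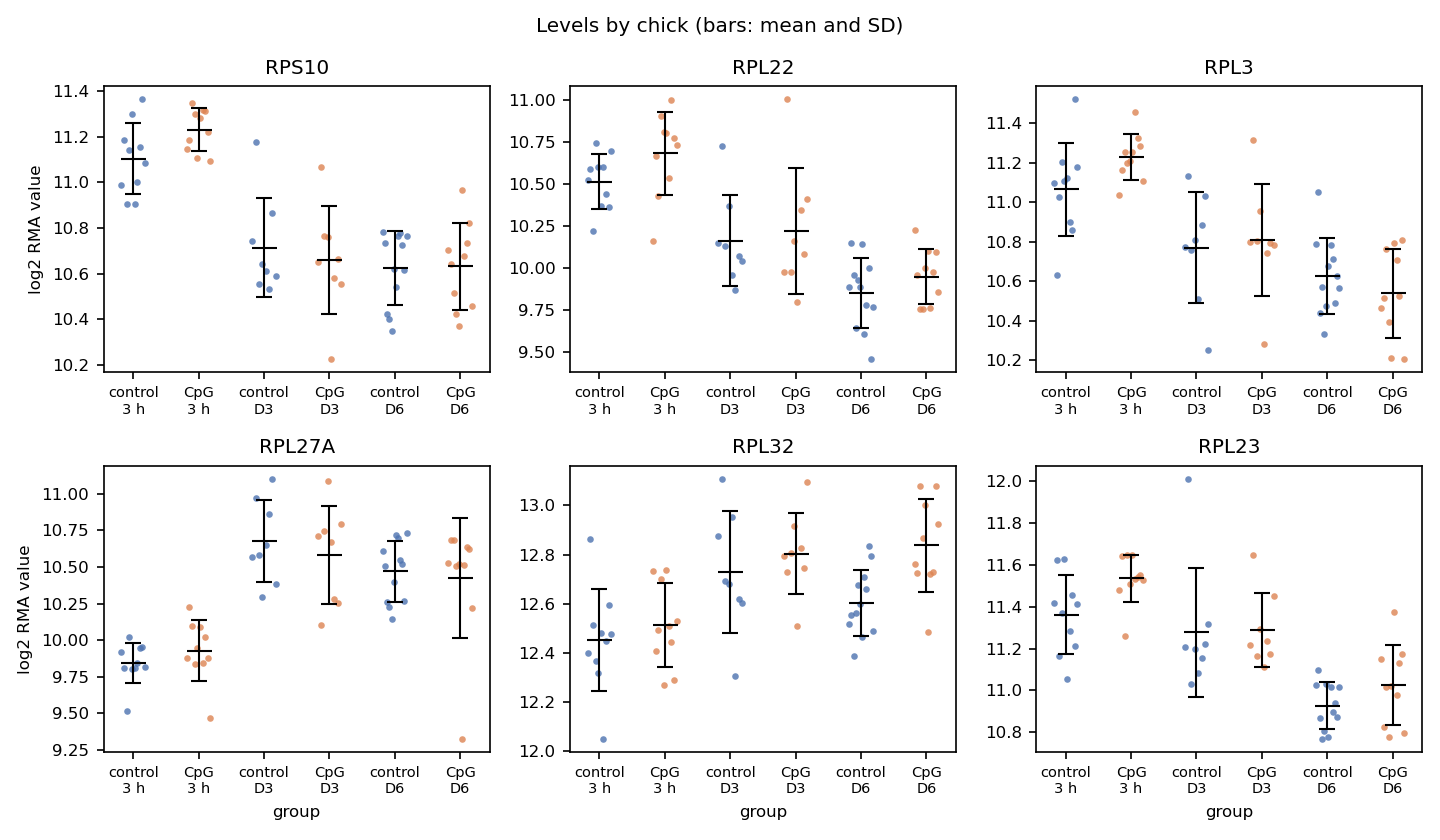
Log2 values of RPS10, RPL22, RPL3, RPL27A, RPL32 and RPL23 by chick (points) in the 6 treatment-by-time groups, with bars for mean and SD. RPS10, RPL22, RPL3 and RPL23 are lower at D6 than at 3 h in both arms, RPL27A is higher at D3 and D6, and control and CpG chicks of the same age overlap in each panel.

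The 2 steps of the time course were also counted apart. From 3 h to D3 10 genes rose and 7 fell in controls (11.8% and 13.0% of all probe sets, 24.8% in all), and 4 rose and 7 fell in CpG chicks (9.68% and 9.74%, 19.4% in all). When the 4 arrays were left out 7 rose and 9 fell in controls, where RPL10A, RPS20 and RPS27A lost their call and RPL23A and RPS4Y1 gained one, and the 11 calls in CpG chicks were kept. With median centring of the arrays these counts were 7 and 8 in controls and 2 and 7 in CpG chicks. From D3 to D6 0 rose and 11 fell in controls (6.76% and 7.95%), and 0 rose and 6 fell in CpG chicks (14.8% and 12.3%, 27.1% in all). In controls 47 of the 51 values were below 0 in this second step, all 18 small-subunit genes among them. Of all 20804 probe sets 8857 were below 0 there. In CpG chicks 44 of 51 were below 0, against 8965 of the 20804 probe sets. These counts of signs were not repeated with arrays left out. The control count includes the D3 control with the highest mean over the 51 genes, described below. RPS27A, which encodes a ribosomal protein fused to ubiquitin, rose by 0.24 ± 0.09 in controls to D3 and then fell by 0.35 ± 0.08 to D6 (adjusted p = 0.00309). The call of its rise ended with any of 7 of the 18 arrays left out and in 5 other settings, among them median centring (adjusted p = 0.0682), array weights (0.0735) and leaving out the 4 arrays that stood apart (0.19, adjusted p = 0.108).

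The second step rested in part on a single chick. Control chick 86 at D3 had the highest mean over the 51 genes of all chicks, at 10.89, whereas the other D3 controls lay between 10.26 and 10.54. Without it 5 genes fell from D3 to D6 in controls, and without all 4 arrays that stood apart 7 did, with RPL22, RPL23A, RPS21 and RPS4Y1 no longer called. In control chick 86 the scores of cell type markers, explained below, were 1.51 for B cells, 1.56 for T cells, 0.79 for heterophils, 1.14 for monocytes and 0.06 for thrombocytes, each the highest of the D3 controls, and -0.30 for red cells, the lowest. The calls of RPL19, RPS27A and RPS28 were kept without each of the 20 arrays in turn and in all 13 other settings tried. Not all of these settings could change them. RPL19, RPS27A and RPS28 have 1 probe set each, so taking the lowest-mean probe set left them as they were. Leaving out RPL3L and RPS19BP1 did not alter their fit either. In CpG chicks the count was 2 without CpG chick 14 at D3 and 14, of which 13 lower, without the 4 arrays.

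The mean of the 51 genes per chick was 10.42 ± 0.11 (SD, n = 10; lowest 10.19, median 10.41, highest 10.54) in controls at 3 h and 10.48 ± 0.09 (n = 10; lowest 10.3, median 10.51, highest 10.58) in CpG chicks. At D3 it was 10.46 ± 0.19 (n = 8; lowest 10.26, median 10.42, highest 10.89) in controls, or 10.39 without the array that stood apart, and 10.42 ± 0.11 (n = 8; lowest 10.23, median 10.41, highest 10.56) in CpG chicks. At D6 it was 10.29 ± 0.12 (n = 12; lowest 10.08, median 10.33, highest 10.46) in controls and 10.3 ± 0.11 (n = 10; lowest 10.13, median 10.3, highest 10.46) in CpG chicks. The groups overlapped at every age, and the D6 chicks took the lowest places.

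**Figure D3:**
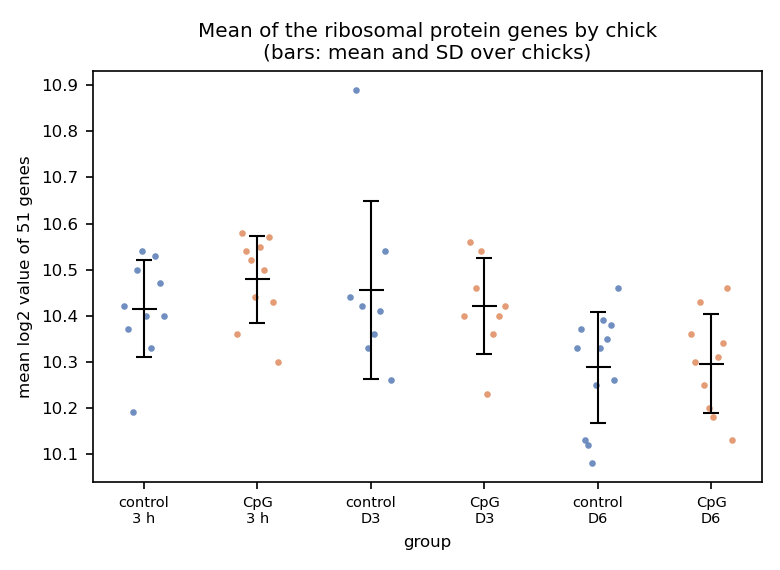
Mean log2 value of the 51 genes in each chick (points), by treatment and time, with bars for mean and SD. The D6 groups are centred at 10.29 and 10.3 and the 3 h groups at 10.42 and 10.48, and control chick 86 at D3, at 10.89, is the highest point.

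Control and CpG chicks are different birds, so the age changes were measured separately in the 2 arms. From 3 h to D6 17 genes fell in both: RPL3, RPL4, RPL12, RPL19, RPL22, RPL23, RPL23A, RPL29 and RPLP1 of the large subunit, RPS4Y1, RPS7, RPS10, RPS13, RPS21, RPS24 and RPS29 of the small, and RPS19BP1. They are 94.4% of the 18 that fell in controls and 68% of the 25 that fell in CpG chicks. Over all probe sets those that fell in both were 74.4% of the lower ones in controls and 78.8% of those in CpG chicks. RPL27A was the gene that rose in both. RPS28 fell in controls, and RPL21, RPL14, RPL9, RPS6, RPS12, RPS16, RPS25 and RPS27A in CpG chicks. RPL9 fell by 0.20 there (adjusted p = 0.0263), and its second probe set, with a mean of 9.961, changed by 0.01 ± 0.08 (adjusted p = 0.948). RPL21 changed by -0.44 in CpG chicks (limma adjusted p = 1.1e-05), and its second probe set, with a mean of 5.733, by -0.35 ± 0.17 (adjusted p = 0.0883). From 3 h to D3 in CpG chicks the 2 RPL21 probe sets changed by -0.39 (adjusted p = 0.000343) and -0.002 ± 0.18 (adjusted p = 0.997). The 9 genes that fell in 1 arm are not shown to differ between the arms, since no change of the CpG effect passed. RPS6 lies on the Z chromosome and was lower in chicks with a high W-linked mean, explained below. Such chicks were 3 of 10 at 3 h and 5 of 10 at D6 among CpG chicks, and 4 of 10 and 6 of 12 among controls. Without the 4 arrays that stood apart 23 genes fell and 6 rose in controls, with 21 of the 22 calls kept, and 29 fell and 5 rose in CpG chicks, with all 27 kept. RPL14, RPL9, RPS16 and RPS25 then fell in controls as well, and RPS28 in CpG chicks. With repeated quantile normalization RPS7, RPS13, RPS19BP1, RPS29, RPL9, RPS6, RPS16 and RPS27A lost their call in CpG chicks, and RPL4, RPS24 and RPS28 in controls.

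Over the 51 genes the changes in the 2 arms correlated with r = 0.886 from 3 h to D6, and 45 had the same sign, or 88.2%. Over all probe sets r was 0.83 and 84.5% had the same sign, so the likeness of the arms is not particular to these genes. These are correlations across genes, which share arrays and are not independent, and no p is given. From 3 h to D3 r was 0.824 (0.771 over all probe sets), with 36 of 51 of the same sign, or 70.6%, against 73.6% over all probe sets. In that first step RPL3, RPL22 and RPS10 fell in both arms, and the call of RPL3 in controls ended with any of 5 of the 18 arrays left out. From D3 to D6 r was 0.705 (0.695), with 46 of the same sign (90.2%, against 80.1%), and RPL23, RPS7, RPS19BP1 and RPS27A fell in both. In CpG chicks all 4 lost their call with repeated quantile normalization (adjusted p = 0.0772, 0.223, 0.139 and 0.0961) and with the 6 scores, and RPS7 with any of 11 of the 18 arrays left out. In controls RPS7 lost it without control chick 86.

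**Figure D4:**
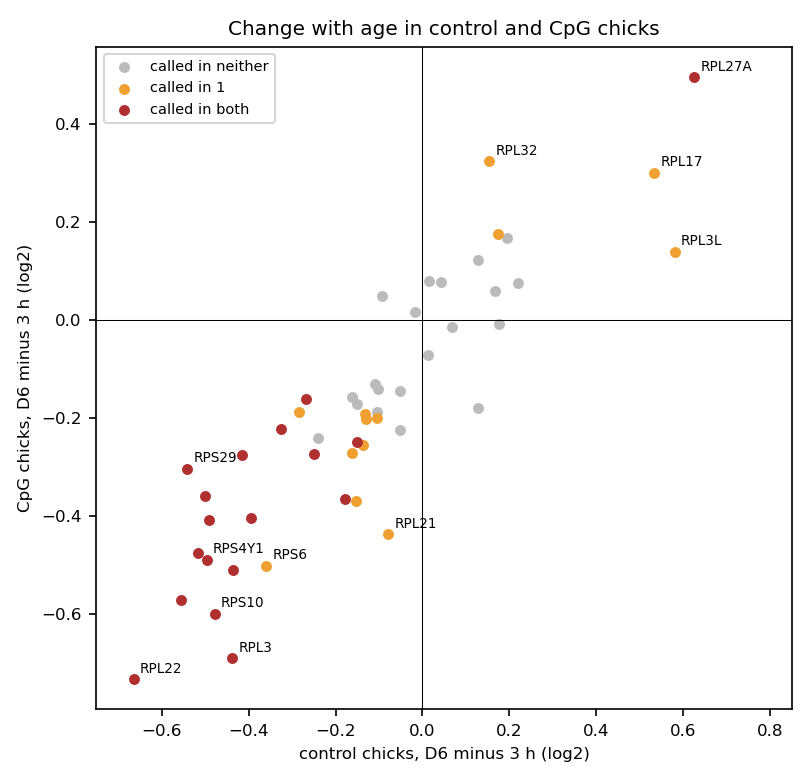
Change of each of the 51 genes from 3 h to D6 in control chicks (x axis, log2) and in CpG chicks (y axis, log2), coloured by whether limma called it in neither, 1 or both arms. The points lie along a rising diagonal from RPL22 at the lower left to RPL27A at the upper right, with r = 0.886.

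Marker levels of blood cell types moved with age as well, and whether the makeup of the blood did was not tested. Markers were summed up as scores, the mean over a cell type's genes of each gene's value in units of its SD over the chicks. The erythroid score (17 genes) went from -0.35 in controls at 3 h (-0.87 to 0.13) to 0.14 at D3 (-0.30 to 0.47) and 0.29 at D6 (0.07 to 0.46). In CpG chicks it went from -0.32 (-0.60 to -0.12) to 0.06 (-0.69 to 0.42) and 0.16 (-0.62 to 0.43). Its genes did not move as one: from 3 h to D6 in controls 9 of the 17 rose and 5 fell, with changes from -2.46 to 2.35. The heterophil score (12 genes) was 0.13 (-0.71 to 1.14), 0.07 (-0.55 to 0.79) and -0.92 (-1.21 to -0.36) in controls at 3 h, D3 and D6, and 11 of the 12 genes fell from 3 h to D6. In CpG chicks it was -0.09 (-0.81 to 1.04), 1.26 (0.47 to 2.43) and -0.002 (-1.03 to 1.30). Control chicks had a monocyte score (8 genes) of 0.26 (-0.47 to 1.18) at 3 h and of -0.59 (-0.93 to -0.20) at D6, where CpG chicks had -0.26 (-1.04 to 0.57) and 0.43 (-0.12 to 1.12). The T cell score (15 genes) stood at -0.58 and 0.25 in controls and at -0.57 and 0.65 in CpG chicks at 3 h and D6. The thrombocyte score (12 genes) was 0.44 at 3 h and -0.48 at D6 in controls, and 0.20 and 0.15 in CpG chicks. The B cell score (9 genes) was -0.01 and 0.32 in controls and -0.26 and 0.27 in CpG chicks at these times.

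The part of these marker changes in the ribosomal changes was not tested beyond fits with cell type scores as covariates. With all 6 scores, 9 genes fell from 3 h to D6 in controls in place of 18. In CpG chicks 15 fell in place of 25, of which 12 were among the 27 called before, and 0 rose. RPS10, RPL22, RPS4Y1 and RPL23A kept their calls in both arms under that fit. Of the 17 calls from 3 h to D3 in controls 1 was kept, that of RPL27A, and of the 11 in CpG chicks 0. The changes behind lost calls were not all smaller: in CpG chicks RPL32 was at 0.35 (adjusted p = 0.15, from 0.29), RPL13 at 0.31 (adjusted p = 0.242, from 0.24) and RPL21 at -0.35 (adjusted p = 0.156, from -0.39). In controls RPS27A was at 0.23 (adjusted p = 0.271, from 0.24) and RPL13 at 0.28 (adjusted p = 0.159, from 0.33), whereas RPL3 was at -0.11 (adjusted p = 0.76, from -0.29). RPL27A was in turn not called from 3 h to D6 under the fit with 6 scores in either arm. With the erythroid score alone its call was kept in controls and lost in CpG chicks (0.28, limma adjusted p = 0.0806).

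Spread between chicks of the same group was small for most of these genes. The SD around the group means ran from 0.118 for RPL39L to 0.429 for RPL17, with a median of 0.187, against 0.246 over all probe sets. The 51 probe sets are the brightest of their genes, and these medians were not compared at equal brightness. After group means were removed, the 1275 pairs of genes had a median correlation of 0.373 over the 58 chicks, and 94.4% of the pairs were above 0. Without the 4 arrays that stood apart the median was 0.358. Genes that went most with the rest were RPS25, with r = 0.806 to the mean of the others, RPL24 at 0.801 and RPS3 at 0.797. Without the 4 arrays these were at 0.737, 0.765 and 0.745, and RPL9 (0.827), RPL7 (0.798) and RPS10 (0.783) were highest. Those that went least with the rest were RPL3L at 0.10, RPS6 at 0.24 and RPL32 at 0.24, which were at -0.19, 0.34 and 0.10 without the 4 arrays. All genes of a chick come from the same RNA and array, so these correlations are given as a description. No such value is given here for pairs of other probe sets.

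Genes outside the 51 were ranked by how like their level over the 58 arrays was to the mean of the ribosomal genes. Only genes whose single platform symbol is also their symbol in the GRCg7b gene table were ranked, without LOC symbols. The most like among them were ABI2 (r = 0.67), TPT1 (0.662), PPIA (0.635), CCNB1 (0.626) and RBMX2 (0.616). With group means removed these were 0.563, 0.562, 0.463, 0.404 and 0.418. TPT1 encodes a small protein whose message is itself of the TOP class.

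The 2 largest spreads within groups belonged to RPL17 and RPS6, both on the Z chromosome. In birds males carry a pair of Z chromosomes and females a Z and a W, and dosage of Z genes is balanced only in part. By the GRCg7b gene table RPS6, RPS23, RPL17 and RPL37 lie on Z. RPS6 had an SD of 0.398 around the group means, RPS23 of 0.314, RPL17 of 0.429 and RPL37 of 0.199. RPL38 on chromosome 18, at 0.319, lay above RPS23. In D6 controls RPS6 ran from 9.57 to 10.95 (median 10.45, n = 12), and in D6 CpG chicks from 9.70 to 10.85 (median 10.38, n = 10).

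Sex is not in the labels, so the mean of 14 W-linked genes was used as a continuous measure. It lay between 5.33 and 6.23 in 31 chicks and between 7.36 and 7.93 in 27, with no chick between. The upper values came from 4 of 10 controls and 3 of 10 CpG chicks at 3 h, 4 of 8 and 5 of 8 at D3, and 6 of 12 and 5 of 10 at D6. A slope on this measure was fitted to every probe set beside the 6 group means. Lower with a higher W-linked mean were 4 of the 51 genes (2.42% of all probe sets), and 0 were higher (0.649%; 3.07% in either direction). These 4 are the 4 genes on Z, and 0 of the 47 on other chromosomes had a called slope.

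RPS6 changed by -0.35 ± 0.02 (SE) for each log2 unit of the W-linked mean (limma adjusted p = 1.72e-19). RPL17, at -0.34 ± 0.03 (adjusted p = 2.05e-13), and RPS23, at -0.23 ± 0.03 (adjusted p = 2.22e-10), were close behind. RPL37 had the shallowest slope of the 4, at -0.10 ± 0.02 (adjusted p = 0.00312). Of all 498 genes on Z, 48.4% had a called lower slope, with a median of -0.12, so the 4 ribosomal genes share a pattern of many Z genes. Both sets of chicks hold controls and CpG chicks, and the slope stands beside the group means in the fit.

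A second RPL17 probe set, with a mean of 6.77, had a slope of 1.54 ± 0.07 (adjusted p = 1.07e-26), against the direction of the first. What it detects was not tested, and the RPL17 values above are those of the brighter probe set. RPL37 also had a dim second probe set (mean 3.02), with a slope of -0.14 ± 0.06 that did not pass (adjusted p = 0.298).

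**Figure D5:**
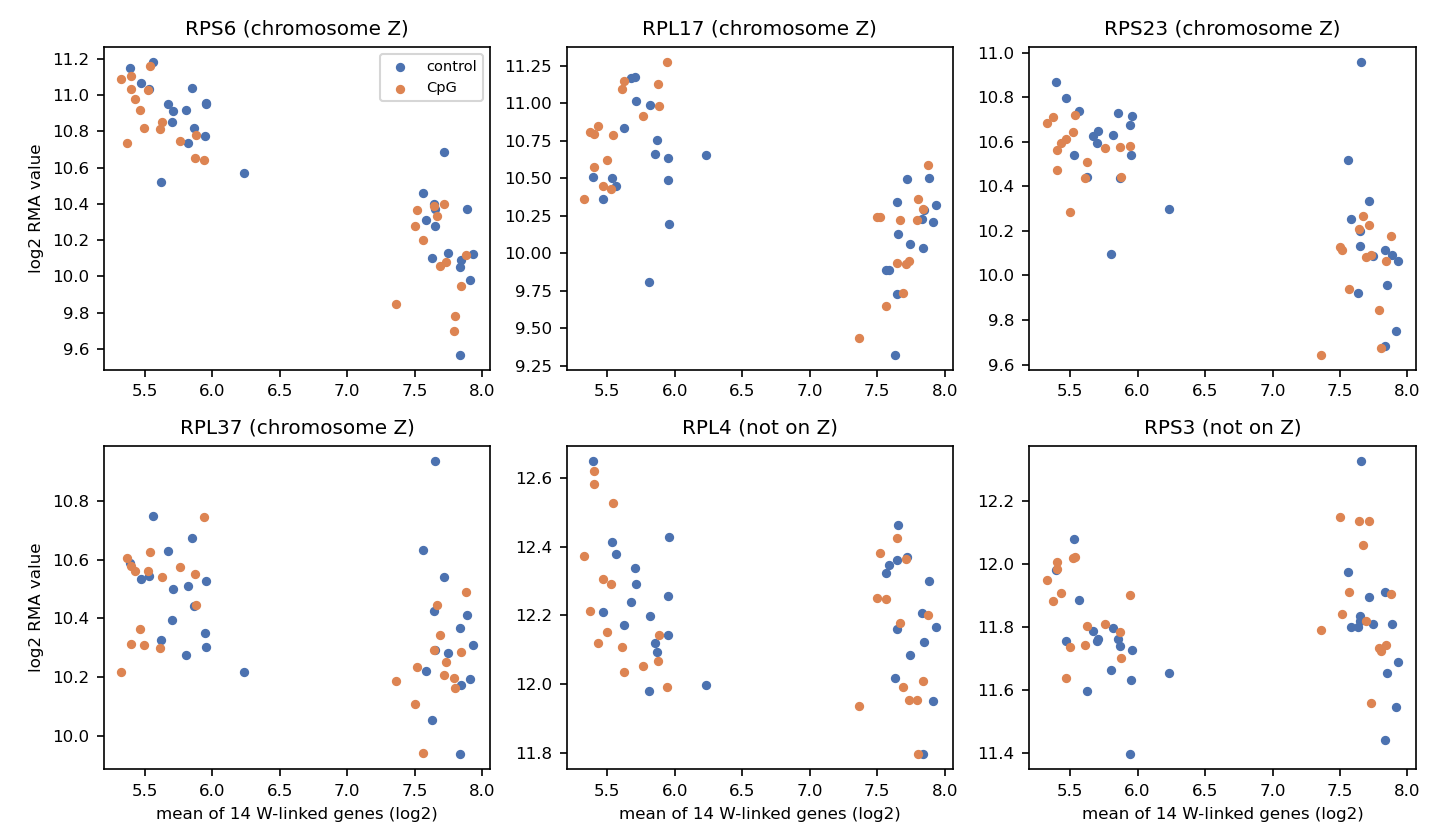
Log2 values of RPS6, RPL17, RPS23 and RPL37 on chromosome Z and of RPL4 and RPS3 on other chromosomes against the mean of 14 W-linked genes in each of 58 chicks (points, coloured by treatment). In the panels of RPS6, RPL17 and RPS23 most chicks above 7.36 lie lower than those below 6.23, and in those of RPL37, RPL4 and RPS3 the 2 clouds overlap.

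Genes that make or serve ribosomes were set beside the ribosomal proteins. Of 31 ribosome biogenesis genes 10 rose and 2 fell in controls from 3 h to D3 (11.8% and 13.0% of all probe sets). From D3 to D6 0 rose and 14 fell (6.76% and 7.95%). In CpG chicks the counts were 9 and 2 (9.68% and 9.74%), then 0 and 24 (14.8% and 12.3%). Their median change in the second step was -0.28 in controls and -0.40 in CpG chicks. NPM1, a nucleolar chaperone, is counted with the TOP messages and translation factors below and not among these 31. It rose by 0.63 ± 0.14 (limma adjusted p = 0.000348) in controls to D3 and fell by 0.55 ± 0.13 (adjusted p = 0.00323) to D6. GNL3, nucleostemin, rose by 0.63 ± 0.10 and fell by 0.47 ± 0.09. POLR1A, the large subunit of RNA polymerase I, fell in both steps, by 0.40 ± 0.12 and 0.52 ± 0.12.

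Of 17 genes of other TOP messages or translation factors, 4 were higher and 7 lower at D6 than at 3 h in controls (26.2% and 21.7% of all probe sets). In CpG chicks 1 was higher and 7 were lower (24.1% and 20.5%). Elongation factors were among the lower ones: EEF1B2 fell by 0.37 ± 0.09 and then by 0.29 ± 0.09 in controls. Control means of EEF1D were 10.36, 9.78 and 9.67, and those of EEF2 12.81, 12.45 and 12.46 at 3 h, D3 and D6. EEF1A1 rose by 0.31 ± 0.09 to D3 (adjusted p = 0.00455). PABPC1, the poly(A)-binding protein, changed by 0.06 ± 0.05 and 0.01 ± 0.04 in the 2 steps and did not pass. Among 16 regulators of their translation LARP1, which binds the TOP tract, rose by 0.96 ± 0.09 from 3 h to D3 in controls (adjusted p = 6.32e-11), and MTOR fell by 0.29 ± 0.08 (adjusted p = 0.00645).

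Ribosomal proteins of the mitochondria gave other counts. Of 58 measured, 22 rose and 3 fell in controls from 3 h to D6 (26.2% and 21.7% of all probe sets). In CpG chicks 15 rose and 4 fell (24.1% and 20.5%). The mitochondrial medians were 0.16 in controls and 0.07 in CpG chicks. The cytosolic medians were -0.13 and -0.19, and the difference between these lists was not tested. Cell cycle genes (14) were higher at D3 in both arms, 12 in controls and 11 in CpG chicks with 0 lower. Of all probe sets 11.8% were higher and 13.0% lower from 3 h to D3 in controls, and 9.68% and 9.74% in CpG chicks. From D3 to D6 0 rose and 3 fell in controls (6.76% and 7.95% of all probe sets), and 0 rose and 10 fell in CpG chicks (14.8% and 12.3%). Of ribosome rescue and recycling genes (6) 4 fell in controls and 3 in CpG chicks from 3 h to D6, and 0 rose. Over all probe sets 21.7% were lower and 26.2% higher in controls, and 20.5% and 24.1% in CpG chicks. ZNF598, which marks RPS10 on stalled ribosomes, fell by 0.33 ± 0.08 in controls from D3 to D6 (limma adjusted p = 0.00404).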

How the data were processed

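Blood was taken into PAXgene tubes and RNA was labelled by the WT PLUS protocol, per the labels' protocols. The deposited log2 values were made with RMA, per the submitters' processing notes; its version is not given in the sources used here, and signal over background is not known. The values were used as deposited. The table has 20804 probe sets, of which 12300 had 1 gene symbol, 256 several and 8248 none. All 51 genes matched the GRCg7b gene table by Entrez identifier.

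A model with 6 group means was fitted to the 58 arrays with limma 3.58.1 (R 4.3.3; lmFit, eBayes, 52 residual and 4.17 prior degrees of freedom). Its 12 contrasts and the slope on the W-linked mean were adjusted by Benjamini-Hochberg over all probe sets, two-sided, with a threshold of 0.05. Nothing says that chicks were processed in batches, and p-values measure the spread between chicks.

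The members, gene lists and tests were chosen with earlier results of these data known. Genes named are up to 10 called with the smallest p each way per contrast (the 4 smallest where fewer than 4 were called), a fixed set, those with extreme spread and all on Z. RPL15, RPL35A, RPL9, RPS12, RPS16, RPS21, RPS24, RPS25 and the genes of other lists were chosen after their values were seen. Alternatives were filters, scalings, array weights, other covariates, other probe sets and leaving out each array.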

Additional observations from a re-analysis of the deposited data

Results flagged for a closer look

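The values of 1 gene, or of the mean of the 51, within 1 group of chicks were tested for a lone extreme value by Dixon's test. Of 200 such sets 24 had one. The D6 controls were not among the groups tested. Chance flags about 1 in 20 sets on average, but sets from the same chicks are not independent. Control chick 86 at D3 was the highest of its group, apart from the rest, in the mean of the 51 genes (10.89), RPL19 (11.44), RPL23 (12.01), RPL23A (11.93), RPL27 (10.78), RPL8 (11.37), RPLP1 (12.84), RPS28 (9.105) and RPS4Y1 (12.76). Its array had a median correlation of 0.947 with the others of its group, 1 of the 4 that stood apart.

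CpG chick 31 at D6, the array with the lowest such correlation (0.942), was the lowest of its group in RPL13 (9.68), RPL24 (9.583), RPL27A (9.327), RPS14 (10.06) and RPS19BP1 (7.982), and the highest in RPS29 (11.5). CpG chick 14 at D3 was the highest in RPL12 (12.03) and RPS4Y1 (12.53).

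Single values far below their group were RPL23 in CpG chick 3 at 3 h (11.26), RPL23A (10.65) and RPS27A (9.413) in CpG chick 1 at 3 h, RPL27A in CpG chick 10 (9.471) and control chick 75 (9.518) at 3 h, RPL39L in CpG chick 20 at D3 (11.06) and RPS13 in control chick 92 at D3 (8.682).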

How the results depend on the processing

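Of 167 counts over 13 results and 13 alternatives 146 stayed within 1.5 times the count reported. The 13 results include CpG at 3 h, at D3 and its 3 changes, which had 0 calls as reported. Totals were compared, so a changed split into higher and lower does not show, as with repeated quantile normalization in controls from 3 h to D6. The 146 thus do not measure how stable the results with calls were. For the CpG effect at D6 the 1 called gene was RPL3L, and 0 were called with 6 cell type scores as covariates. Also 0 were called when the dimmest 40% of probe sets were dropped and without RPL3L and RPS19BP1. Both of these settings remove RPL3L itself, so the loss of its call was fixed in advance. With array weights and without the 4 arrays that stood apart 3 were called. With those 6 scores the counts were 1 and 9 in controls (3 h to D3, 3 h to D6) and 0, 0 and 15 in CpG chicks (3 h to D3, D3 to D6, 3 h to D6). With the erythroid score alone they were 5 and 7 in controls (3 h to D3, D3 to D6) and 6 in CpG chicks (3 h to D3). From D3 to D6, repeated quantile normalization gave 5 in controls and 2 in CpG chicks, array weights 7 and 11, and leaving out the 4 arrays 7 and 14. The arrays of the contrast alone gave 10 in controls from 3 h to D3 and 5 from D3 to D6. The setting without the 4 arrays and that without RPL3L and RPS19BP1 were chosen after seeing the data. The cause of these shifts was not tested.

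Leaving out each array in turn gave 0 to 1 calls for CpG at D6 and 0 for CpG at 3 h, at D3 and for its 3 changes. Without CpG chick 31 the 1 call at D6 was of another gene than RPL3L, which was higher in CpG chicks. It gave 13 to 18, 5 to 12 and 19 to 25 in controls (3 h to D3, D3 to D6, 3 h to D6), 8 to 11, 2 to 10 and 24 to 30 in CpG chicks, and 4 to 5 for the W-linked slope. The lowest counts from D3 to D6 came without control chick 86 and without CpG chick 14.

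Reversed signs were RPL12 in controls from 3 h to D3 with its dimmer probe set (0.089), RPL23 in CpG chicks from 3 h to D3 with its dimmer probe set (0.0937), RPL9 in CpG chicks from 3 h to D6 with its dimmer probe set (0.00756), the slope of RPL17 with its dimmer probe set (1.54) and RPL24 in controls from 3 h to D6 with the 6 scores (-0.0662). No paired analysis was possible because the groups share no chick numbers. Arrays limit precision by their number, and dim probe sets such as RPL3L may lie near background.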
